A study of Mus musculus with 4 samples.

Results

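FoxO transcription factors and 7 genes grouped with them as muscle atrophy and metabolic targets were followed in the hearts of mutant mice. Their GSK-3α kinase cannot be restrained by phosphorylation. The members were the factors Foxo1, Foxo3 and Foxo4, the ubiquitin ligase genes Fbxo32, Trim63 and Fbxo30, and Klf15, Bnip3, Pik3ip1 and Cited2. They were taken as every probe set whose only gene symbol in the array annotation is one of these names, which gave 23 of 45037 tested probe sets and 10 of 18193 measured genes. The knock-in group held 2 arrays of heart RNA from mice with the S21A substitution, serine 21 to alanine, in GSK-3α. The wild-type group held 2 arrays of hearts without it. Both groups were C57B6, 3.6 months old and sampled at baseline, on single-colour Affymetrix arrays. Copies of the allele, sex, and whether each array is a separate animal were not stated, so n counts arrays and the spread may be technical. Values are the deposited RMA values on the log2 scale, and every difference is knock-in minus wild-type.

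FoxO factors switch on genes for protein breakdown and fuel use when insulin signalling is low. Insulin activates PI3-kinase and then Akt, which phosphorylates FoxO proteins and so keeps them out of the nucleus. The same kinase phosphorylates GSK-3α at the serine replaced here, which restrains that enzyme, so both lie downstream of Akt. In striated muscle, nuclear FoxO raises transcription of the ubiquitin ligases that mark sarcomere and other muscle proteins for the proteasome.

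RefSeq promoter windows, from 250 bases before to 50 bases after an annotated start, were found for 8 of the 10 members in assembly GRCm38.p6. Any other start of a gene was not searched. The windows of Fbxo30, Klf15 and Pik3ip1 lay inside the annotated span of the gene. That of Pik3ip1 was at 3330481 to 3330780, in a gene that begins at 3319241. The windows are described here because several members are known targets of factors with short recognition sequences, and 3 that hold such sequences are shown. Searched on both strands were the FoxO core GTAAACA, the insulin response element CAAAACA, the glucocorticoid response element AGAACA and TGTTC with 3 bases between and the hypoxia core ACGTG. Capitals mark every match.
Trim63 promoter, chr4:134314870-134315169, plus strand: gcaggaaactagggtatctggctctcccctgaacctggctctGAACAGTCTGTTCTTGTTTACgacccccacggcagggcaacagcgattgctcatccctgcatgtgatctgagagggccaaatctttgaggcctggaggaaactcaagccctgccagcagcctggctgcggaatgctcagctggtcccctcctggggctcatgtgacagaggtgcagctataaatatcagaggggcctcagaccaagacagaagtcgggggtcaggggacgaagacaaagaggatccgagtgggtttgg
Bnip3 promoter, chr7:138909457-138909756, minus strand: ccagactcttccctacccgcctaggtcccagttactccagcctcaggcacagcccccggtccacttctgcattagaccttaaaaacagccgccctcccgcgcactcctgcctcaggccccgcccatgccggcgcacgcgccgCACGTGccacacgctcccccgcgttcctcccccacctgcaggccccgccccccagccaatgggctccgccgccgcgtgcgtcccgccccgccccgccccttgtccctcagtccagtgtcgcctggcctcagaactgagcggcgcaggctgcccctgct
Cited2 promoter, chr10:17722978-17723277, plus strand: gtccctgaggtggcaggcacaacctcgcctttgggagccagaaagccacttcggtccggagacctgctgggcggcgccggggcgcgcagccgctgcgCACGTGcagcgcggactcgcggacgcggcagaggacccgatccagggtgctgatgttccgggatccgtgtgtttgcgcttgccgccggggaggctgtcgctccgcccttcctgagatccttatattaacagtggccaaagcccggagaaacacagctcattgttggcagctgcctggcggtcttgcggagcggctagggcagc

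The Trim63 window held the FoxO core, as TGTTTAC on the strand shown, at −194 to −188 from the start. Directly before it, at −208 to −195, stood a match to the glucocorticoid element, GAACAGTCTGTTCT, and the matches did not overlap. Of all 32851 windows of this length 3.65% held the FoxO core and 0.0487%, or 16 windows, held the glucocorticoid element. No other member window held either one, and Foxo4 and Fbxo32 had no window to search. The insulin response element was in 0 of the 8 member windows, against 6.28% of all windows. ACGTG was in 3 of 8, those of Klf15, Bnip3 and Cited2, against 19.6% of all windows. Each ACGTG match lay inside CACGTG, the E-box that clock and MYC-type factors also bind, and so matched on both strands. A match describes letters only and shows no binding.

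The arrays carried the transcripts of heart muscle, and transcripts typical of liver had higher values on the knock-in arrays. All 14 cardiomyocyte markers lay above the array medians of 6.14 to 6.23 on every array, and the cardiac myosin gene Myh6 was at 14.71 and 14.62 in knock-in hearts against 14.53 and 14.61 in wild-type hearts. Of 17 liver markers 17 were higher in knock-in hearts, with a median difference of 1.90, and their summed linear values were 8788 and 3322 in knock-in replicates 1 and 2, against 1498 and 948 in wild-type replicates 1 and 2. None of the 17 passed limma over all probe sets (lowest adjusted p = 0.153), though 16 had an unadjusted p under 0.05, and no gene of the 8 marker lists passed. Fast skeletal muscle markers, of the tissue where the atrophy ligases are best known, were mostly dim: 9 of 12 were below the array median on both knock-in arrays, against 8 and 9 on the wild-type arrays, and the sums were 643 to 649 in knock-in hearts against 647 to 815 in wild-type hearts. Of 12 fibroblast markers 12 were higher (median 0.19, sums 43361 to 47718 in knock-in against 39927 to 40742 in wild-type hearts), as were 10 of 12 endothelial markers (median 0.14, sums 27720 to 28408 in knock-in against 25744 to 25996 in wild-type hearts). Of 10 lymphocyte markers 10 were lower (median −0.20, sums 745 to 794 in knock-in against 834 to 964 in wild-type hearts). Many of them were dim: 6 of 10 were below the array median on each knock-in array, against 4 and 6 on the wild-type arrays. For macrophages 9 of 11 were higher (median 0.09, sums 12125 to 12877 in knock-in against 11328 to 12055 in wild-type hearts), and for adipocytes 3 of 7 (median −0.09, sums 1374 to 1588 in knock-in against 1398 to 1678 in wild-type hearts). Adipocyte markers were mostly dim too, with 5 and 4 of 7 below the array median on the knock-in arrays, against 5 and 5 on the wild-type arrays. What part these cell types have in the values below was not tested, and in RNA of whole tissue fewer cells of a type and less RNA per cell cannot be told apart. For the Gapdh control, the excess of 3′ over 5′ log2 signal, which tracks RNA quality, was 0.54 and 0.76 on the knock-in arrays, against 0.62 and 0.61 on the wild-type arrays. Between knock-in and wild-type arrays the SD of the log2 difference was 0.31 and 0.31 for wild-type replicate 1, and 0.25 and 0.23 for wild-type replicate 2; it was 0.21 between the knock-in arrays and 0.24 between the wild-type arrays. Gsk3a, the targeted gene, was at 10.62 and 10.80 in knock-in hearts against 11.16 and 11.08 in wild-type hearts, and its difference of −0.42 did not pass (limma adjusted p = 0.458); a substitution of 1 residue need not alter the transcript.

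None of the 23 member probe sets passed the test. Limma, adjusted by Benjamini-Hochberg across the whole table at 0.05, called 0 of 23, where it called 3 of all 45037, or 0.00666%. An unadjusted p under 0.05 was found for 5 higher and 1 lower probe set, or 26.1% of the members, against 10.7% of all probe sets (5.07% higher and 5.62% lower). That count of 6 became 2 without knock-in replicate 1 and 3 without knock-in replicate 2, and it was 5 or 7 with 1 wild-type array left out. The groups did not overlap for 12 of 23, with 8 higher and 4 lower. That is 52.2%, against 45.2% of all probe sets, of which 18.5% were higher and 26.7% lower. The median member difference was 0.04, with 13 above 0 and 10 below, and that of all probe sets was −0.04, with 18665 above and 26368 below. The split of 13 and 10 moved with the scaling: 10 were higher after quantile normalisation, 12 after cyclic loess and 16 with arrays shifted to 1 median. It also moved with the arrays used, with 18 higher without wild-type replicate 1 and 10 without wild-type replicate 2. Probe sets of 1 gene share its RNA, so the 3 higher Foxo1 and 4 higher Fbxo30 probe sets are not independent. By gene, 2 of 10 had an unadjusted p under 0.05, against 10.2% of all genes. For 5 of 10 genes the groups did not overlap, against 46.5% of all genes. The members were chosen with earlier results of these data known, and an excess was not tested.

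**Figure D1:**
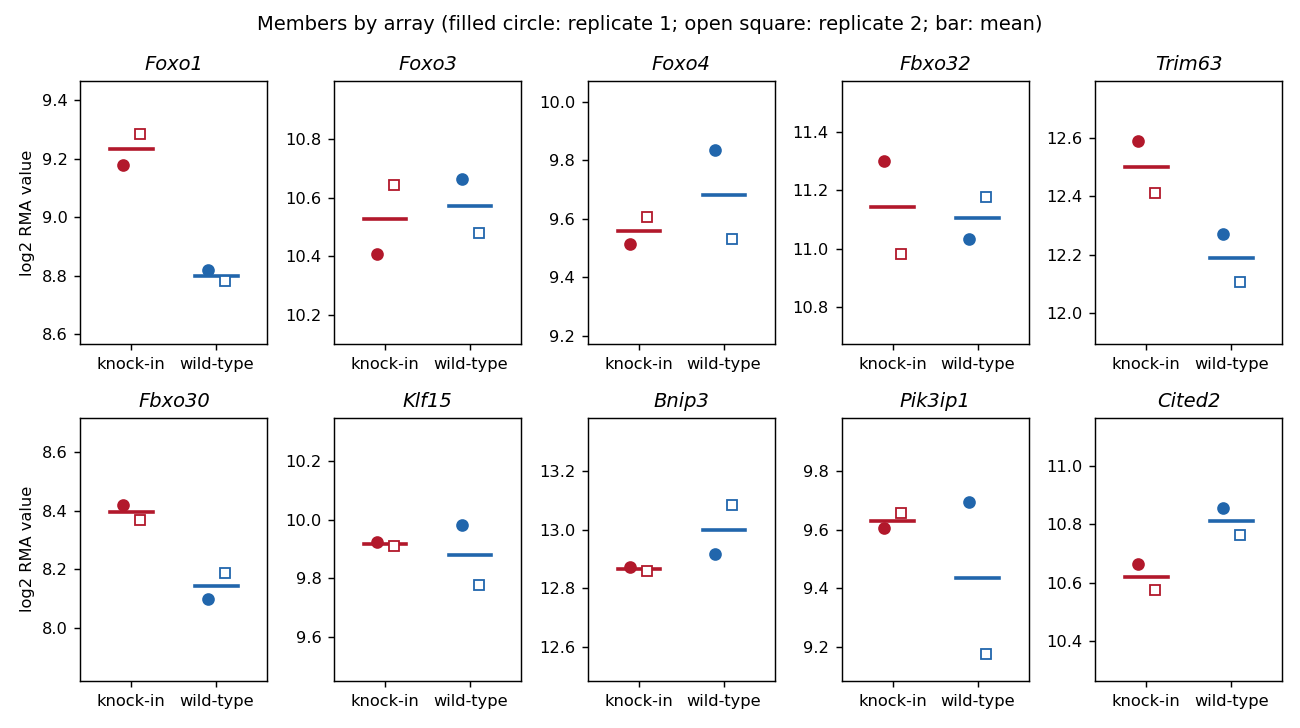
Log2 RMA value (vertical axis) of the brightest probe set of each member in the 2 knock-in arrays (left, red) and the 2 wild-type arrays (right, blue), with bars at the group means; each panel spans the same width on the log2 scale. The groups stand apart for Foxo1, Trim63 and Fbxo30, which were higher in knock-in hearts, and for Bnip3 and Cited2, which were lower, and they overlap for the other 5 genes.

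Among the factors, Foxo1 had higher values in knock-in hearts by 3 of its 4 probe sets. Foxo1 is the FoxO member best known for control of glucose and lipid metabolism. Its brightest probe set gave 9.18 and 9.28 in knock-in hearts, against 8.82 and 8.78 in wild-type hearts. Both knock-in arrays were above both wild-type arrays by more than either pair differed. The means were 9.23 ± 0.07 in knock-in and 8.80 ± 0.03 in wild-type hearts (SD, n = 2 arrays each), a difference of 0.43 (standard error 0.11, 95% interval 0.17 to 0.69), or 1.35-fold (limma adjusted p = 0.458). This probe set is of the type that can match several transcripts, so the others matter. A second probe set had 9.03 and 9.03 in knock-in hearts against 8.69 and 8.72 in wild-type hearts, a difference of 0.32 (0.08 to 0.57). The third had 8.98 and 9.06 in knock-in hearts against 8.94 and 8.87 in wild-type hearts, a difference of 0.11 (−0.15 to 0.37), with the arrays of the groups barely apart. The fourth, at −0.11, was dim, below the medians of all 4 arrays, and close to background. Averaged over all 4 probe sets, the dim one included, the difference was 0.19, and over the 3 others 0.29; without probe sets of the several-transcript type the gene was represented by the third, at 0.11. Without knock-in replicate 1, the array with the most liver transcripts, the brightest probe set differed by 0.48, and with each other array left out by 0.38 to 0.45.

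For Foxo3 and Foxo4 the arrays of the groups overlapped. Foxo3, the factor most tied to muscle atrophy, had 10.41 and 10.64 in knock-in hearts against 10.66 and 10.48 in wild-type hearts. The values interleave, and the difference of −0.05 (95% interval −0.36 to 0.27) turned positive without knock-in replicate 1 (0.07), without wild-type replicate 1 (0.05) and with arrays shifted to 1 median (0.02). Its other probe sets lay at 0.06 and, for a dim one, −0.06. Foxo4, an X-linked member of the family, had 9.51 and 9.61 in knock-in hearts against 9.83 and 9.53 in wild-type hearts. Here wild-type replicate 1 alone stood high, and the difference of −0.12 (−0.45 to 0.20) became 0.03 without it and −0.27 without wild-type replicate 2. The other Foxo4 probe set was at −0.03 (−0.42 to 0.37).

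The genes most like Foxo1 in their pattern, by the root mean square distance of array values centred on their own mean over the 4 arrays, were 1810013L24Rik, Cebpa and Znrf2. Their distances were all 0.016 on the log2 scale. Cebpa, which encodes a transcription factor of liver and fat, had 8.30 and 8.42 in knock-in hearts against 7.96 and 7.94 in wild-type hearts. Within 0.05 of Foxo1 lay 50 of 18193 genes, and likeness over 4 arrays does not show a link between genes.

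**Figure D2:**
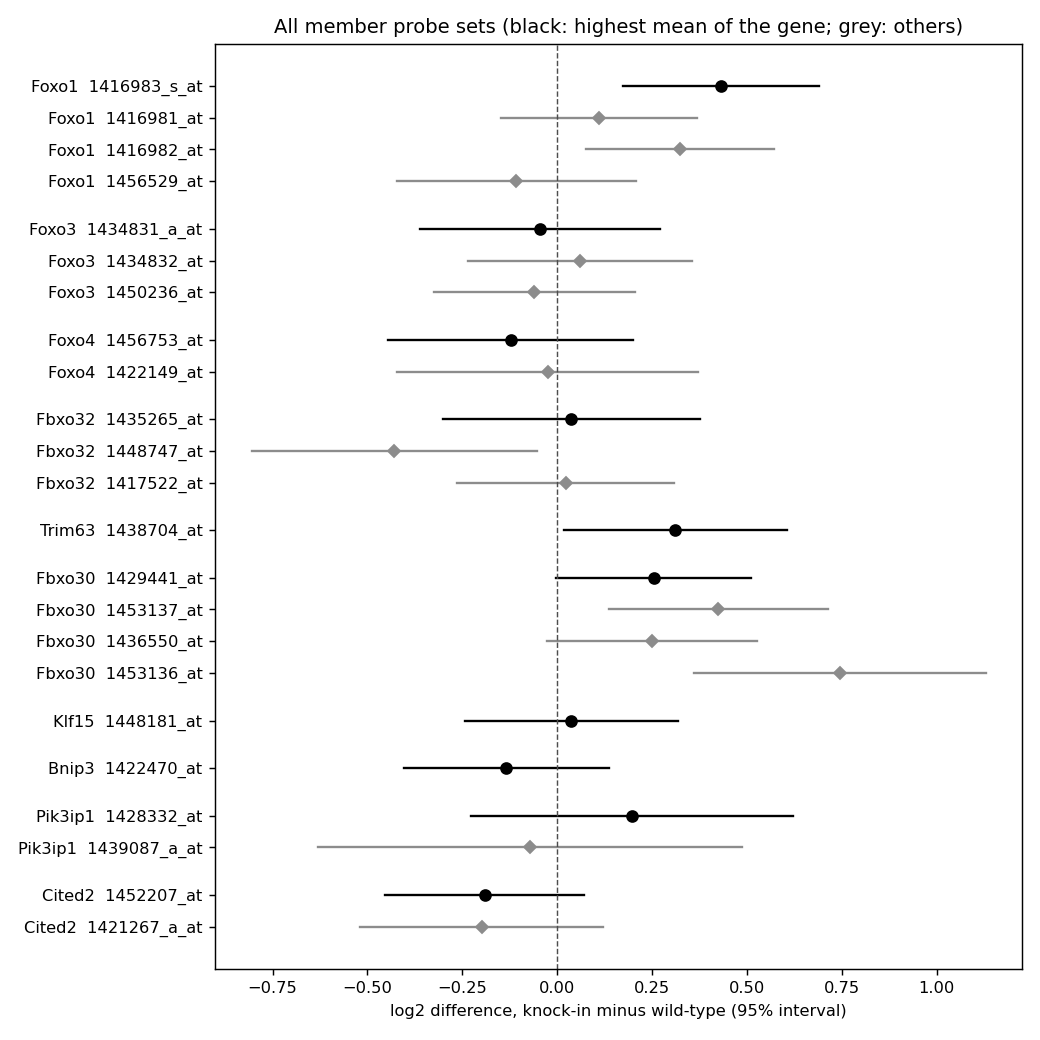
Difference of each of the 23 member probe sets, knock-in minus wild-type, on the log2 scale (horizontal axis) with its 95% interval from limma; black circles are the brightest probe set of a gene and grey diamonds the others. All 4 Fbxo30 probe sets lie above 0, between 0.25 and 0.74, whereas the 3 Fbxo32 probe sets disagree, at 0.04, −0.43 and 0.02.

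Among the 3 atrophy ligases, Trim63 and Fbxo30 had higher means in knock-in hearts by every probe set, and Fbxo32 did not. Trim63 encodes MuRF1, a RING-finger ligase that binds the sarcomere and marks myosin and other thick-filament proteins. It had 12.59 and 12.41 in knock-in hearts against 12.27 and 12.11 in wild-type hearts. The lower knock-in array was above the higher wild-type array by less than the arrays of either group differed. The means of 12.50 ± 0.12 in knock-in and 12.19 ± 0.12 in wild-type hearts (SD, n = 2 arrays each) gave a difference of 0.31 (standard error 0.12, 95% interval 0.02 to 0.61), or 1.24-fold, and did not pass (limma adjusted p = 0.459). Only 1 probe set measures the gene. Its difference was 0.22 without knock-in replicate 1, 0.40 without knock-in replicate 2, 0.39 without wild-type replicate 1 and 0.23 without wild-type replicate 2. After quantile normalisation and after cyclic loess it was 0.25 (limma unadjusted p = 0.095 and 0.092). With arrays shifted to 1 median it was 0.37 (limma unadjusted p = 0.016).

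Fbxo30 encodes MUSA1, the substrate-binding part of a ligase that BMP signalling holds down in mouse muscle. Its brightest probe set had 8.42 and 8.37 in knock-in hearts against 8.10 and 8.19 in wild-type hearts, a difference of 0.25 with a 95% interval from −0.00 to 0.51 (limma adjusted p = 0.468). A second had 8.43 and 8.43 in knock-in hearts against 8.11 and 7.89 in wild-type hearts, a difference of 0.42 (0.14 to 0.71). The third had 8.18 and 8.37 in knock-in hearts against 8.02 and 8.04 in wild-type hearts, a difference of 0.25 (−0.03 to 0.53). In each of these 3 both knock-in arrays were above both wild-type arrays. The fourth had the widest gap, at 5.71 and 5.30 in knock-in hearts against 4.68 and 4.84 in wild-type hearts, but all 4 values were below the array medians, so its difference of 0.74 (limma adjusted p = 0.458) has no fold. Without any 1 array the 4 differences stayed above 0, the lowest being 0.15 for the third probe set without knock-in replicate 2. The brightest probe set differed by 0.18 after quantile normalisation, 0.20 after cyclic loess and 0.31 with arrays shifted to 1 median. The mean over the 4 probe sets, the dim one included, differed by 0.42, and that over the 3 others by 0.31.

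Fbxo32 encodes atrogin-1, the F-box protein that with MuRF1 is the classic marker of muscle atrophy. Its brightest probe set had 11.30 and 10.98 in knock-in hearts against 11.03 and 11.18 in wild-type hearts. The groups overlap fully, and the difference of 0.04 (95% interval −0.30 to 0.38) turned to −0.12 without knock-in replicate 1 and to −0.04 after quantile normalisation, after cyclic loess and without wild-type replicate 1. A second probe set had 9.45 and 9.77 in knock-in hearts against 9.90 and 10.18 in wild-type hearts. Both knock-in values were below both wild-type values there, a difference of −0.43 (−0.80 to −0.05, limma adjusted p = 0.458), which was −0.27 without knock-in replicate 1. The third lay at 0.02 (−0.26 to 0.31). The probe sets of the gene thus disagree, and their mean differed by −0.12.

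Klf15 encodes a Krüppel-like factor that glucocorticoids induce, that promotes branched-chain amino acid breakdown and that restrains cardiac growth in mice. It had 9.92 and 9.91 in knock-in hearts against 9.98 and 9.78 in wild-type hearts. The knock-in arrays fell between the wild-type arrays, and the difference of 0.04 (95% interval −0.24 to 0.32) turned to −0.04 after quantile normalisation and after cyclic loess and to −0.06 without wild-type replicate 2. Pik3ip1 encodes a membrane protein that inhibits PI3-kinase, upstream of Akt and FoxO. Its brightest probe set had 9.61 and 9.66 in knock-in hearts against 9.69 and 9.17 in wild-type hearts. The wild-type arrays differed from each other by more than the groups did, so the difference of 0.20 (−0.23 to 0.62) became −0.06 without wild-type replicate 2 and 0.46 without wild-type replicate 1. Its second probe set had 7.80 and 8.20 in knock-in hearts against 8.39 and 7.75 in wild-type hearts, a difference of −0.07 (−0.63 to 0.49), with overlap again.

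Bnip3 and Cited2 had lower means in knock-in hearts. Bnip3 encodes a protein of the outer mitochondrial membrane that promotes mitophagy and cell death and is induced by hypoxia and by FoxO3 in muscle. It had 12.87 and 12.86 in knock-in hearts against 12.92 and 13.08 in wild-type hearts. The groups do not overlap, but the nearer wild-type array lay just above, and the difference was −0.13 with a 95% interval from −0.41 to 0.14 (limma adjusted p = 0.638). It was −0.22 without wild-type replicate 1 and −0.05 without wild-type replicate 2. Cited2 encodes a coregulator that competes with HIF-1α for the coactivator CBP and its paralogue. Its brightest probe set had 10.66 and 10.57 in knock-in hearts against 10.86 and 10.76 in wild-type hearts, a difference of −0.19 (−0.45 to 0.07, limma adjusted p = 0.520). The other had 8.55 and 8.60 in knock-in hearts against 8.92 and 8.62 in wild-type hearts, a difference of −0.20 (−0.52 to 0.12), which shrank to −0.05 without wild-type replicate 1. Both probe sets placed both knock-in arrays below both wild-type arrays.

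**Figure D3:**
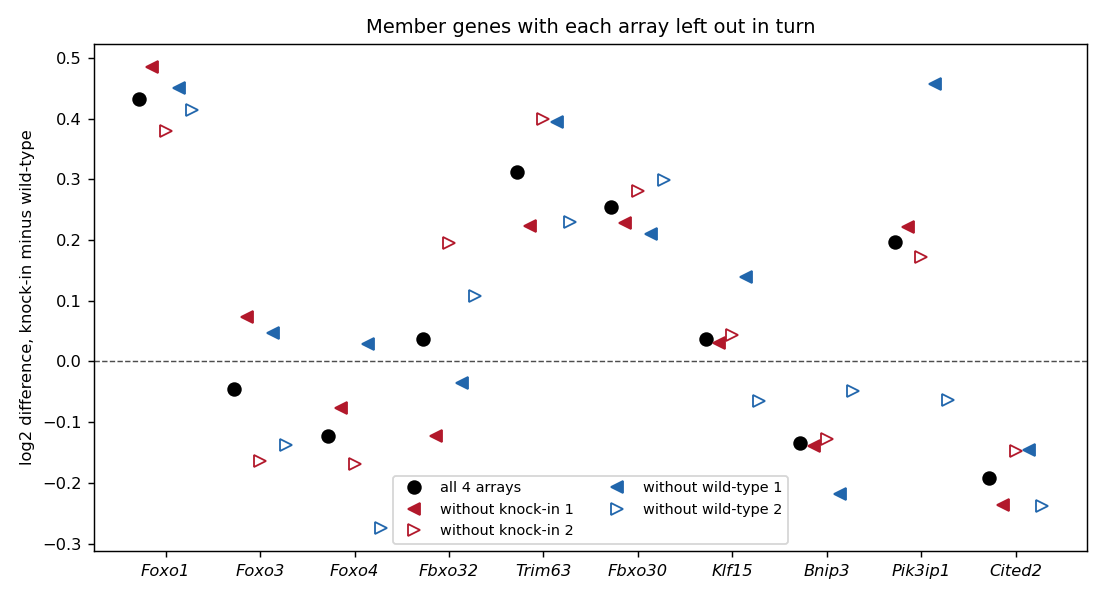
Log2 difference, knock-in minus wild-type, of the brightest probe set of each member (vertical axis) over all 4 arrays and with each array left out in turn. Foxo1 (0.38 to 0.48), Trim63 (0.22 to 0.40) and Fbxo30 (0.21 to 0.30) stay above 0 and Bnip3 and Cited2 below it, whereas Foxo3, Foxo4, Fbxo32, Klf15 and Pik3ip1 cross it.

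Related genes were described as 8 lists, chosen with earlier results of these data known, with 1 probe set a gene. No listed gene passed limma over all probe sets. List medians, and counts above and below 0 or at an unadjusted p, were taken in the deposited scaling only. Single values move with the scaling by as much as some of these medians. Zfand5, at 0.37 in the deposited values, was 0.30 after cyclic loess and 0.43 with arrays shifted to 1 median. The median of all 18193 genes was −0.01, with 8539 above 0 and 9651 below, and an unadjusted p under 0.05 was found for 5.45% on the higher and 4.76% on the lower side. Other FoxO-responsive genes ran both ways: of 29, 17 lay above 0 and 12 below (median 0.07), with 2 above and 5 below at that p. The cell cycle inhibitor gene Cdkn1a had 9.89 and 10.12 in knock-in hearts against 10.78 and 10.90 in wild-type hearts, a difference of −0.83. Ddit4, whose product inhibits mTORC1, had 10.50 and 10.78 in knock-in hearts against 11.38 and 11.62 in wild-type hearts, a difference of −0.86. Gadd45a, a stress gene that also rises in muscle atrophy, had 8.38 and 8.56 in knock-in hearts against 7.81 and 7.78 in wild-type hearts, a difference of 0.68. In all 3 the groups were well apart, and limma adjusted p lay at 0.283, 0.329 and 0.345.

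Other muscle ubiquitin ligases and atrophy genes lay above 0 in 16 of 26 and below in 10 (median 0.08), and 2 on the higher and 0 on the lower side had an unadjusted p under 0.05. Zfand5, a zinc-finger protein gene induced in atrophying muscle, had 12.13 and 12.22 in knock-in hearts against 11.79 and 11.82 in wild-type hearts, a difference of 0.37, with its 6 other probe sets between −0.18 and 0.39. Usp14, of the proteasome-bound deubiquitinase, differed by 0.47 (others −0.08 to 0.19), or 0.30 without wild-type replicate 1, and Runx1 by −0.33 (others −0.26 to −0.06), or −0.18 when knock-in replicate 2 was left out and −0.22 when wild-type replicate 1 was. Both knock-in values lay on 1 side of both wild-type values for these 3 by the brightest probe set. In the mitophagy and autophagosome list 13 of 18 lay above 0 and 5 below (median 0.04), with none at such a p in either direction. Pik3c3, the lipid kinase of autophagosome formation, differed by 0.23, its partner Becn1 by 0.22 (others −0.14 to 0.63) and Atg12 by 0.25 (others 0.14 and 0.16), or 0.38 and 0.13 without knock-in replicates 1 and 2.

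The genes whose products phosphorylate, dephosphorylate, bind or otherwise modify FoxO lay above 0 in 26 of 33 (median 0.12), and 6 on the higher and 1 on the lower side had an unadjusted p under 0.05. Ywhaq, which encodes a scaffold protein of the family that holds phosphorylated FoxO in the cytoplasm, had 11.30 and 11.21 in knock-in hearts against 10.72 and 10.96 in wild-type hearts, a difference of 0.42, with its 7 other probe sets between 0.15 and 0.40, and 0.15 where probe sets of the several-transcript type were left out. The AMP-activated kinase genes had differences of opposite sign: Prkaa2, the main form in heart, differed by −0.32 while its other probe sets lay at −0.01 and 0.02, and Prkaa1 by 0.64, with all 4 values below the array medians, and by 0.30 and 0.98 without wild-type replicates 1 and 2. Among PI3-kinase subunits 5 of 12 lay above 0 and 7 below (median −0.04), with none at such a p. Besides Pik3c3, the smallest p were those of Pik3cd, at −0.38 (−0.65 and −0.11 without wild-type replicates 1 and 2, and others −0.58 to 0.15), and Pik3r4, at 0.24 (0.12 without wild-type replicate 1).

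Glucocorticoid response genes, which bear on Klf15 and on the element in the Trim63 window, lay above 0 in 7 of 19 and below in 12 (median −0.14), and 1, on the lower side, had an unadjusted p under 0.05. That one was Ddit4, also counted above, and next came Cebpd at −0.30 (its other probe set −0.24) and Sult1a1 at −0.23, which were −0.16 and −0.14 without wild-type replicate 2, and Cebpd was −0.17 without knock-in replicate 1. A further list held amino acid genes linked to KLF15, its relatives and the transport genes Slc2a4 (0.21), Fabp3 (0.10) and Slc25a20 (0.01). In it 16 of 24 lay above 0 and 8 below (median 0.06). At such a p there was 1 gene in each direction, the KLF relatives Klf6 and Klf9. Klf6 differed by 0.47 (others −0.33 to 0.25), Klf9 by −0.32 (others −0.45 to −0.05) and Klf10 by 0.44, which was 0.09 and 0.79 without wild-type replicates 1 and 2. The hypoxia list, for the setting in which Bnip3 and Cited2 are best known, lay above 0 in 16 of 25 and below in 9 (median 0.06). Of these, 3 on the higher and 2 on the lower side had such a p. Besides hypoxia response genes the list held Cited1 (−0.23), Cited4 (−0.27), Tfap2a (−0.13), Tfap2b (0.07) and Tfap2c (−0.20). Cited4 was 1 of the 2 lower genes at that p. Hif1a, the oxygen-sensitive factor that CITED2 opposes, had 10.87 and 10.79 in knock-in hearts against 9.75 and 10.02 in wild-type hearts, a difference of 0.94 (limma adjusted p = 0.254). Its second probe set differed by 0.89. The third differed by 0.60, with 7.64 and 6.50 in knock-in hearts against 6.42 and 6.52 in wild-type hearts. There the groups overlapped and knock-in replicate 1 alone stood high. The fourth, a dim one, lay at −0.18. Ankrd37 differed by 0.52, with the same value, 7.58, on both knock-in arrays against 7.18 and 6.93 on the wild-type arrays. Higd1a, whose product is a mitochondrial protein, differed by 0.33 (others 0.17 and 0.30).

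**Figure D4:**
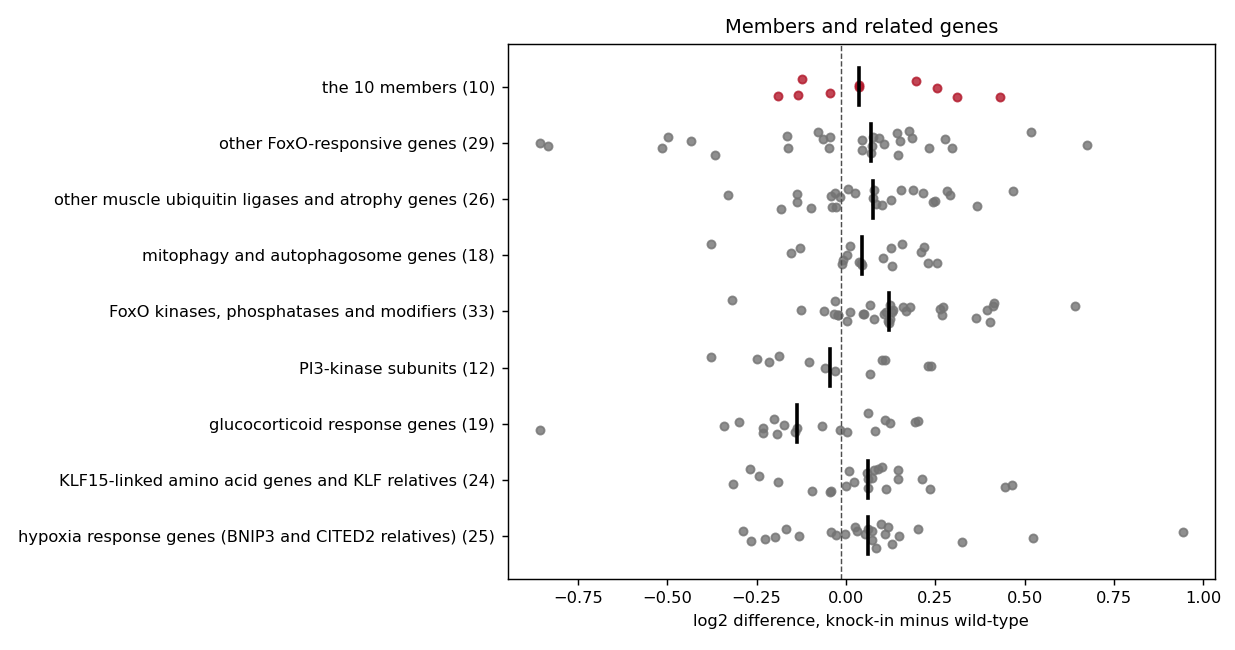
Log2 difference, knock-in minus wild-type (horizontal axis), of each gene of the 10 members (red) and of the 8 related lists (grey), with the number of genes in brackets; vertical bars are list medians and the dashed line is the median of all genes, −0.01. List medians lie between −0.14 and 0.12, and single genes reach −0.86 (Ddit4) and 0.94 (Hif1a).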

How the data were processed

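Single-colour Affymetrix arrays measured transcripts in 4 samples of mouse heart RNA. The authors deposited log2 values, 1 per probe set and array, and the submitters' processing notes name RMA and Affymetrix Expression Console. For this comparison the labels say that both wild-type scans were processed together with these knock-in scans only. RMA normalises arrays to one another, which can remove a shift shared by most genes; the medians of the deposited arrays ran from 6.14 to 6.23. The program's version is not given in the sources used here.

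Of 45101 probe sets 64 controls were left out. Probe sets with 1 symbol (34945) were named, those with several (932) or none (9160) were not, and 1 probe set shared by Foxo3 and another gene was left out. A gene was represented by its probe set of highest mean over the 4 arrays ("brightest"). Knock-in minus wild-type was fitted by lmFit and eBayes, with no covariate, in limma 3.58.1 (R 4.3.3) over all probe sets, with Benjamini-Hochberg adjustment, and the same function was tested on simulated data. The fit had 2 residual degrees of freedom and a prior of 4.54. The median standard error was 0.12, and the number of arrays limits the precision. Tables and plots used Python 3.11.15, pandas 2.3.3 and matplotlib 3.10.9. Members, lists (281 of 301 entries measured) and the naming rule were chosen with earlier results of these data known. The rule names all members and the 3 genes of smallest p in each related list. Alternatives covered the prior variance, filters on dim or cross-hybridising probe sets, normalisation, array weights, the replicate number, arrays left out, the threshold and the summary of probe sets.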

Additional observations from a re-analysis of the deposited data

How the results depend on the processing

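No member probe set passed in any setting tried, which includes each array left out in turn. The count over all probe sets, 3, was 1 with a mean of at least 7, 11 with arrays shifted to 1 median, 5 at a threshold of 0.1, and 0 to 2 with 1 array left out. With the replicate number as a block it was 4, with 0 members; the block changed no member's call. The titles' numbers pair nothing by the labels, and same-numbered arrays' deviations correlated at 0.08 over probe sets. Of the alternative values of the 10 genes, 72 equalled the reported difference, so that no sign could turn, and of the other 78, 65 kept the sign and 13 turned. Shifting arrays to 1 median turned Foxo3 to 0.0151. Quantile normalisation turned Fbxo32 to −0.0362 and Klf15 to −0.0444, and cyclic loess turned them to −0.0364 and −0.0408. The mean of its probe sets turned Fbxo32 to −0.123. Quantile normalisation moved Foxo1 to 0.340, Bnip3 to −0.191 and Cited2 to −0.267, with no turn of sign. With 1 array left out Foxo3 ranged between −0.163 and 0.0726, Foxo4 between −0.274 and 0.0281, Fbxo32 between −0.123 and 0.196, Klf15 between −0.0645 and 0.139 and Pik3ip1 between −0.0631 and 0.457, each crossing 0. The causes were not tested. The settings for genes of the related lists were added after seeing the data, and in them 0 of these genes passed. Where 1 array was left out, the lone array was assumed to vary like the other group. Of the probe sets above the medians of all 4 arrays, the mean over 3 for Foxo1 was 0.289 and over 3 for Fbxo30 0.309, an alternative chosen after seeing the data. With 2 arrays a group, a difference of 0.94 (Hif1a) did not pass, and 3 member probe sets were below the array medians.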
